A study of Mus musculus with 8 samples.

Results

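Nfil3, Bhlhe40 and 8 genes of the core circadian clock (Dbp, Nr1d1, Nr1d2, Per1, Per2, Cry1, Arntl and Clock) were followed in mouse CD8+ T cells exposed to an agonist of the liver X receptors. The genes were taken by symbol from a table of 41730 genes and other features, in which each of the 10 has an entry of its own and none is repeated. Nfil3 was included with its difference between the treatments already known, so the differences of these 10 genes are given as a description, with no p-value. All 10 passed the filter on low counts and were among 12162 genes tested.

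The cells were OT-I CD8+ T cells, which carry a transgenic receptor for the ovalbumin peptide SIINFEKL. They had met that peptide on dendritic cells derived from bone marrow in a co-culture, from which they were then sorted by flow cytometry. Cultures held 2 µM RGX-104, a synthetic liver X receptor agonist (4 libraries, replicates 5 to 8), or its solvent DMSO (4 libraries, replicates 1 to 4). The sources used here do not give the mouse strain, age, length of culture, hour of harvest or whether libraries came from separate animals or cultures. Each SD and p-value therefore covers the spread between these libraries alone, and that spread may be technical.

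The circadian clock is a transcriptional feedback loop found in most mammalian cells. CLOCK and BMAL1, the product of Arntl, bind E-box sequences as a pair and drive Per, Cry, Nr1d1, Nr1d2, Dbp and Bhlhe40, and the PER and CRY proteins then repress that pair. The REV-ERB receptors (Nr1d1, Nr1d2) repress, and the ROR receptors activate, genes such as Arntl and Nfil3. DBP activates and NFIL3 represses at the same D-box sequences. In lymphocytes NFIL3 is also known as a factor needed for natural killer and innate lymphoid cell development, and BHLHE40 is induced by T cell receptor signals and represses Il10.

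Libraries held 13144704 to 15966972 counts. The CD8 T cell markers had reads in every library, Cd2 apart. The 10 CD8 T cell markers with counts summed to 2304 to 2387 CPM in RGX-104 libraries and 1955 to 2005 CPM in DMSO libraries, where CPM are counts scaled to a common library size by TMM. Of these, 4 were called higher with RGX-104 and 0 lower at an edgeR adjusted p under 0.05, beside 0.888% higher and 1.78% lower of all tested genes (Cd8a, Cd8b1, Lat and Thy1, with log2 fold changes of 0.52, 0.39, 0.39 and 0.19). Cd2 was listed at 0 in every library, as were H2-Aa, H2-Ab1 and H2-Eb1 of the dendritic cell list, and these zeros are not read as absence. The 14 dendritic cell markers summed to 594 to 705 CPM in RGX-104 libraries and 613 to 681 CPM in DMSO libraries, most of it Ccr7, which T cells also express. The 14 macrophage and monocyte markers summed to 93.2 to 104.5 CPM in RGX-104 libraries and 79.6 to 88.8 CPM in DMSO libraries, led by Ly6c2 and Ctss. Of the 9 macrophage and monocyte markers tested, edgeR called 0 higher and 0 lower. Only Ly6c2 (log2 fold change 0.28) was higher in every RGX-104 library than in every DMSO library, beside 3.88% of all tested genes. In the other direction 0 of the 9 separated the groups. Of the 10 dendritic cell markers tested edgeR called 0 and gave 3 an unadjusted p under 0.05, beside 13.8% of all tested genes, and 2 were lower in every RGX-104 library than in every DMSO library, beside 4.32% of all tested genes. The 2 were Batf3, at 58.6 ± 4.59 CPM in RGX-104 and 72.0 ± 4.502 CPM in DMSO libraries (log2 fold change -0.30), and Ccl22, at 1.61 ± 0.90 CPM in RGX-104 and 3.66 ± 0.68 CPM in DMSO libraries (-1.18). The third, Fscn1, had -0.83, and its groups overlapped. Dendritic cells and macrophages express Nfil3 and Bhlhe40 as well, and the part of such cells in the results was not tested.

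Across the 10 genes, Nfil3 was lower with RGX-104 and the others were not called. The count of called genes was 0 higher and 1 lower at an adjusted p under 0.05 by edgeR, DESeq2 and limma-voom alike, beside 2.66% of all tested genes by edgeR (0.888% higher, 1.78% lower), and since Nfil3 was chosen for this difference nothing is read from that count. The median log2 fold change of the 10 was 0.05 (-0.10 without RGX-104 replicate 6), and that of all tested genes 0.00276. In CPM the RGX-104 and DMSO libraries did not overlap for 2 of the 10 genes, Nfil3 and Clock, beside 8.20% of all tested genes (3.88% with RGX-104 higher, 4.32% with RGX-104 lower).

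Nfil3 encodes a basic leucine zipper repressor (Entrez gene 18030; GRCm38 chromosome 13, 52967209 to 52982878). RGX-104 replicates 5 to 8 had 28.5, 28.5, 22.5 and 28.7 CPM, and DMSO replicates 1 to 4 had 36.5, 49.4, 37.2 and 42.9 CPM. Every RGX-104 library lay below every DMSO library. The mean was 27.1 ± 3.04 CPM in RGX-104 and 41.5 ± 6.01 CPM in DMSO libraries (SD, n = 4 each), so the RGX-104 level was 65.2% of the DMSO level. The log2 fold change was -0.62 ± 0.12 (SE; 95% interval -0.87 to -0.36), the 93rd largest fall of the 216 genes called lower. These values rested on 336 to 410 reads per RGX-104 library and 565 to 735 per DMSO library. In bulk RNA, fewer cells that express a gene and less of its RNA per cell cannot be told apart. Leaving out any 1 library gave -0.67 to -0.52.

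**Figure D1:**
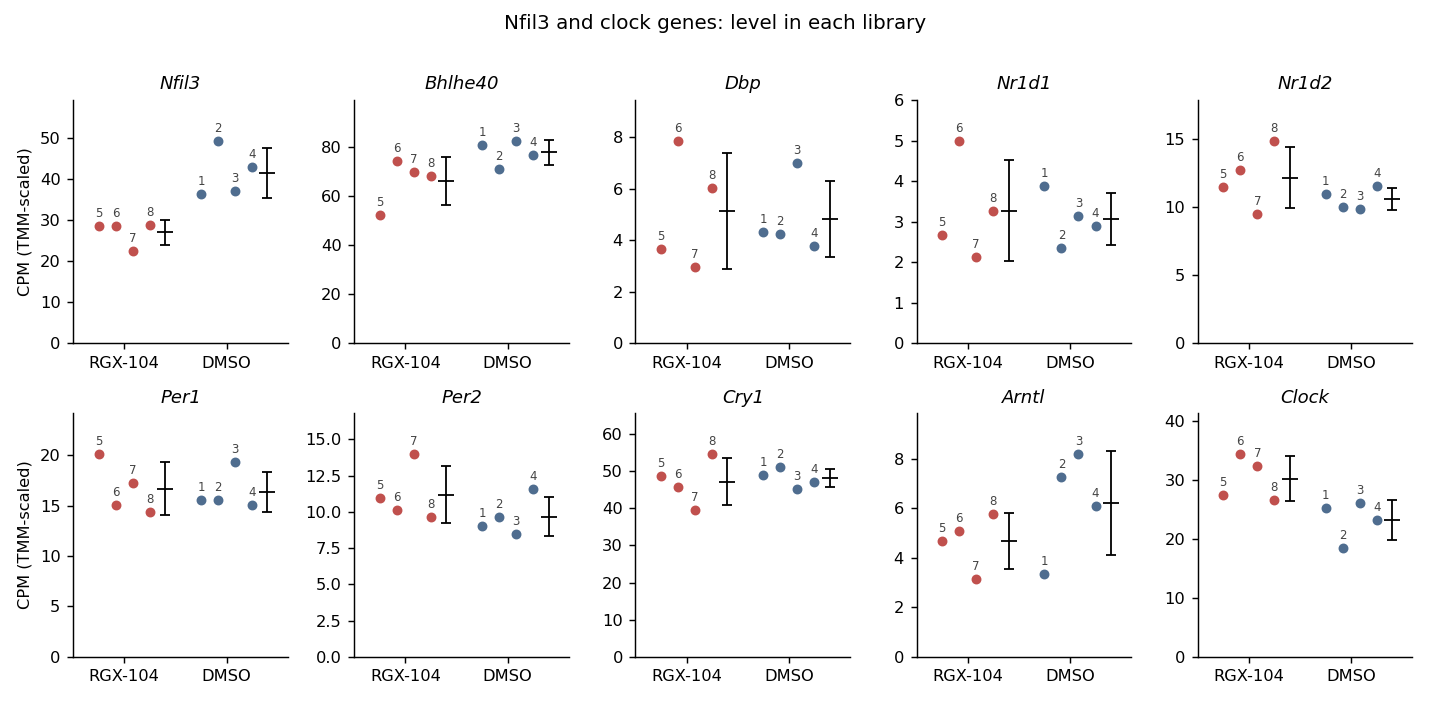
TMM-scaled CPM of the 10 genes (y axes, from 0) in each RGX-104 (red) and DMSO (blue) library, with replicate numbers beside the points and the mean ± SD of 4 libraries as a black mark. Nfil3 lies at 22.5 to 28.7 CPM in RGX-104 and 36.5 to 49.4 CPM in DMSO libraries, Clock shows a narrow separation in the other direction, and the groups overlap for the other genes.

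The sequence before the start of Nfil3 is shown because it is the one gene of the 10 with a called difference. Sequences are RefSeq's for GRCm38.p6, cover 250 bases before an annotated start, and were found for 8 of the 10 genes. They were searched on both strands for the E-box CACGTG, the D-box pattern TTANGTAA, the nuclear receptor half-site AGGTCA and the C/EBP-ATF pattern TGATGNAA. REV-ERB and ROR receptors are among several nuclear receptors that recognise AGGTCA, and a match does not tell these receptors apart. Of 32851 such windows in the genome, 6.02% held CACGTG, 2.06% TTANGTAA, 14.0% AGGTCA and 3.45% TGATGNAA. The Nfil3 window (chr13:52981040-52981289, minus strand; 81.6% G and C) lies inside the gene's annotated span, which begins further upstream, and held 1 half-site, on the reverse strand and starting 12 bases before the start (capitals), and none of the other patterns.
Nfil3: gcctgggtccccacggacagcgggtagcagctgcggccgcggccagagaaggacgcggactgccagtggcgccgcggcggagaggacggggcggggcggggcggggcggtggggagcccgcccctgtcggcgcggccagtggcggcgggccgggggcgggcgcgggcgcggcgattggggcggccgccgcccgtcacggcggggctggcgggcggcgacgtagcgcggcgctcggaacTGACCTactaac
AGGTCA also stood in a window of Nr1d2, Per1 and Clock, which were not called, and CACGTG stood in a window of Per1 and of Cry1. No window of these 8 genes held TTANGTAA or TGATGNAA. A match is a description of letters and not evidence of binding.

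Dbp, the D-box activator that opposes NFIL3 (chromosome 7, 45705100 to 45710203), was at 3.65, 7.86, 2.95 and 6.02 CPM in RGX-104 replicates 5 to 8, against 4.33, 4.23, 7.00 and 3.77 CPM in DMSO replicates 1 to 4. The RGX-104 range held all 4 DMSO libraries, with RGX-104 replicates 6 and 8 and DMSO replicate 3 above the rest. Its log2 fold change was 0.08 ± 0.31 (95% interval -0.57 to 0.73), and it was -0.21 without RGX-104 replicate 6. The interval is wide at 44 to 113 reads per library. Exons of Sphk2, which had 541 to 658 reads per library, overlap those of Dbp on the opposite strand over 539 bp. Whether the authors' counts used strand is not stated in the sources at hand, so the reads of such pairs cannot be told apart.

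Bhlhe40 encodes a basic helix-loop-helix repressor that acts at E-boxes (Entrez gene 20893; chromosome 6, 108660629 to 108666925). It had 52.2, 74.3, 69.7 and 68.0 CPM in RGX-104 replicates 5 to 8 and 80.6, 70.8, 82.5 and 76.6 CPM in DMSO replicates 1 to 4. Replicate 5 was the lowest of all, and replicate 6 lay within the DMSO range. The means were 66.0 ± 9.61 CPM in RGX-104 and 77.6 ± 5.14 CPM in DMSO libraries. The log2 fold change was -0.23 ± 0.10 (95% interval, not adjusted for the number of genes, -0.43 to -0.036) and was not called. Without RGX-104 replicate 5 it was -0.13.

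Clock and Arntl encode the partners of the activating pair and had differences of opposite sign, neither of them called. Clock (chromosome 5, 76209868 to 76305603) was at 27.4, 34.4, 32.4 and 26.6 CPM in RGX-104 replicates 5 to 8 and 25.2, 18.4, 26.1 and 23.3 CPM in DMSO replicates 1 to 4. All RGX-104 libraries lay above all DMSO libraries, by a small margin between replicate 8 and replicate 3. The log2 fold change was 0.38 ± 0.13 (95% interval, not adjusted for the number of genes, 0.10 to 0.66), with 0.28 without DMSO replicate 2.

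Arntl (chromosome 7, 113178471 to 113314126) was at 4.70, 5.08, 3.15 and 5.79 CPM in RGX-104 replicates 5 to 8, and at 3.36, 7.26, 8.20 and 6.08 CPM in DMSO replicates 1 to 4. DMSO replicate 1 fell among the RGX-104 values, while the other 3 DMSO libraries were above them. The log2 fold change was -0.41 ± 0.29 (95% interval -1.01 to 0.18), and leaving out 1 library moved it between -0.62 (DMSO replicate 1) and -0.25 (DMSO replicate 3). With 47 to 130 reads per library, a fall as large as that of Nfil3 lies inside this interval, as does no change.

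The REV-ERB receptors bind haem and repress through corepressors. Nr1d1 (chromosome 11, 98767932 to 98775377) was at 2.67, 5.01, 2.14 and 3.28 CPM in RGX-104 replicates 5 to 8, against 3.88, 2.35, 3.15 and 2.91 CPM in DMSO replicates 1 to 4. RGX-104 libraries held both the highest and the lowest value. The log2 fold change was 0.09 ± 0.34 (95% interval -0.61 to 0.79) on 32 to 72 reads per library, and -0.19 without RGX-104 replicate 6. Exons of Thra, which had 249 to 422 reads per library, overlap those of Nr1d1 on the opposite strand over 263 bp.

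Nr1d2 (chromosome 14, 18204056 to 18239106) was at 11.4, 12.7, 9.51 and 14.9 CPM in RGX-104 replicates 5 to 8 and 10.9, 10.01, 9.84 and 11.6 CPM in DMSO replicates 1 to 4. Its log2 fold change was 0.20 ± 0.18 (95% interval -0.17 to 0.56). The 4 DMSO libraries lay inside the range of the RGX-104 libraries.

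Per1, Per2 and Cry1, repressors of the loop, did not separate the groups. Per1 (chromosome 11, 69095108 to 69109965) was at 20.1, 15.02, 17.3 and 14.3 CPM in RGX-104 replicates 5 to 8 and 15.6, 15.5, 19.3 and 15.1 CPM in DMSO replicates 1 to 4, a log2 fold change of 0.03 ± 0.16 (95% interval -0.29 to 0.35). Per2 (chromosome 1, 91415977 to 91459351) was at 10.9, 10.2, 14.0 and 9.68 CPM in RGX-104 and 9.04, 9.61, 8.45 and 11.6 CPM in DMSO libraries, a log2 fold change of 0.21 ± 0.19 (95% interval -0.17 to 0.60). Neither PER gene had a library group that stood clear of the other.

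Cry1 encodes the cryptochrome that closes the loop together with PER (chromosome 10, 85131700 to 85185054). It was at 48.8, 45.7, 39.6 and 54.6 CPM in RGX-104 replicates 5 to 8 and 49.1, 51.1, 45.2 and 47.2 CPM in DMSO replicates 1 to 4. The log2 fold change was -0.03 ± 0.10, and its 95% interval of -0.24 to 0.18 left out a fall of the size seen for Nfil3. Its window (chr10:85185055-85185304, minus strand) held 1 E-box, starting 60 bases before the start (capitals), and is shown as that of an E-box gene whose groups overlapped.
Cry1: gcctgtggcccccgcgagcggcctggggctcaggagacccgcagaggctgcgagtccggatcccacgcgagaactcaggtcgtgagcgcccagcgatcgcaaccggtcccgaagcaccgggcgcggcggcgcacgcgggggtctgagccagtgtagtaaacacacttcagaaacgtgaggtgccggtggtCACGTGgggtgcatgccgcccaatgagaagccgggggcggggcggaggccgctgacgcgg

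The spread between libraries of 1 group differed among the 10 genes. The coefficient of variation, the SD as a share of the mean, was 44.0% in RGX-104 and 30.4% in DMSO libraries for Dbp, 38.05% in RGX-104 and 20.6% in DMSO libraries for Nr1d1, and 23.9% in RGX-104 and 33.7% in DMSO libraries for Arntl. Counting error alone would give 11.7% for Dbp, 14.6% for Nr1d1 and 11.1% for Arntl. Cry1 had 13.3% in RGX-104 and 5.27% in DMSO libraries, and Nfil3 11.2% in RGX-104 and 14.5% in DMSO libraries. Over all tested genes the median was 13.1% in RGX-104 and 12.996% in DMSO libraries. Of the 10 genes, Dbp, Nr1d1 and Arntl were therefore the 3 whose spread between libraries most exceeded that of a typical tested gene, and they were also the 3 with the fewest reads.

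**Figure D2:**
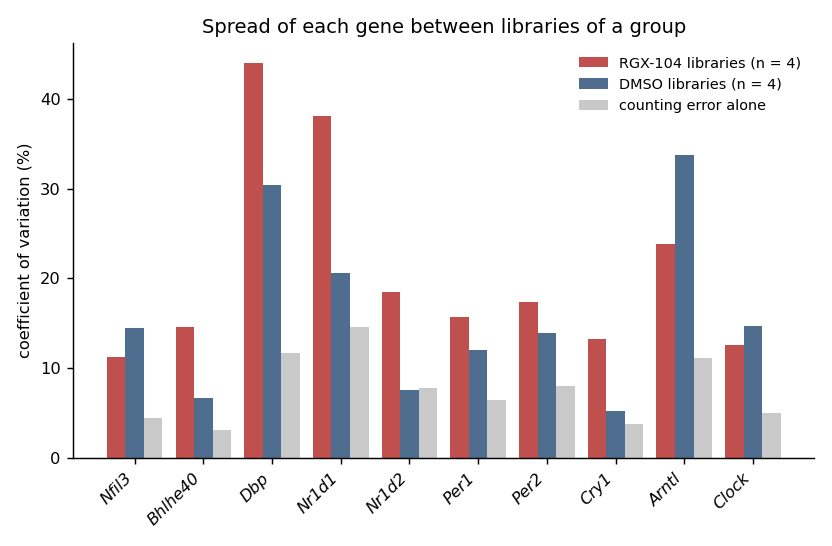
Coefficient of variation of TMM-scaled CPM (y axis, percent) of each gene over the 4 RGX-104 libraries (red) and the 4 DMSO libraries (blue), beside the value that counting error alone would give at the gene's mean count (grey). Dbp (44.0% in RGX-104, 30.4% in DMSO) and Nr1d1 (38.05% in RGX-104, 20.6% in DMSO) stand above Cry1 (13.3% in RGX-104, 5.27% in DMSO).

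Deviations from the group means show which genes moved together between libraries apart from the treatment. Of 45 pairs of the 10 genes, Pearson's r over 8 libraries ran from -0.80 to 0.78 with a median of 0.02, and 20 were negative, so the genes did not vary as one block. Dbp and Nr1d1 had r = 0.76, with replicate 6 high and replicate 7 low for both. Without these libraries r was 0.35, with deviations still taken from the means of all libraries of a group. The highest pair was Nr1d2 with Cry1 (r = 0.78), and the lowest Dbp with Per2 (r = -0.80). Nfil3 and Clock had r = -0.74. These are descriptions over few libraries that share depth and handling, and no p is given.

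By Pearson's r of log2(CPM + 1) with Nfil3 over all 8 libraries, the most alike of 9136 genes were Psmb2 (r = 0.99), a proteasome subunit, Ptpn7 (0.94), a phosphatase of leukocytes, Rsrc2 (0.93), Fem1b (0.93) and Npm1 (0.93). That measure holds the difference between treatments. Over deviations from the group means, which do not, they were Dhx36 (r = 0.97), Fam120c (0.96), Ptpn11 (0.96), Psmb2 (0.96) and Fgfr1op2 (0.95). Psmb2 stood in both sets. Leaving out any 1 library kept its r at 0.98 or above over all libraries and at 0.93 or above over deviations. The deviations were not recomputed when a library was left out. Both sets were picked as the highest r of 9136 genes over these same libraries, so these values are a description and no test. None of the other clock genes was in either set.

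Other parts of the clock, together with the C/EBP factors Cebpa, Cebpb, Cebpd and Cebpg, were followed in 39 further genes. They were listed by role with earlier results of these data known, and 32 could be tested. Of the 32, 4 fell (Rora, Ciart, Csnk1e and Cebpg) and 0 rose, beside 1.78% lower and 0.888% higher among all tested genes. Since earlier results were known when the lists were made, nothing is read from that count. The p-values given for these genes carry the same limit. DESeq2 and limma-voom called the same 4, and no alternative analysis called any of the 32 genes higher. By edgeR 8 had an unadjusted p under 0.05, beside 13.8% of all tested genes. With RGX-104 replicate 7, RGX-104 replicate 8 or DMSO replicate 3 left out, 2 of the 4 remained called, Rora and Csnk1e. The median log2 fold change of the 32 was -0.00287. Per3, Npas2, Arntl2 and Bhlhe41, paralogs of core clock genes, had too few reads to be tested, with Rorb and Fbxl21. Csnk2b was listed at 0 in every library, which is not read as absence.

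**Figure D3:**
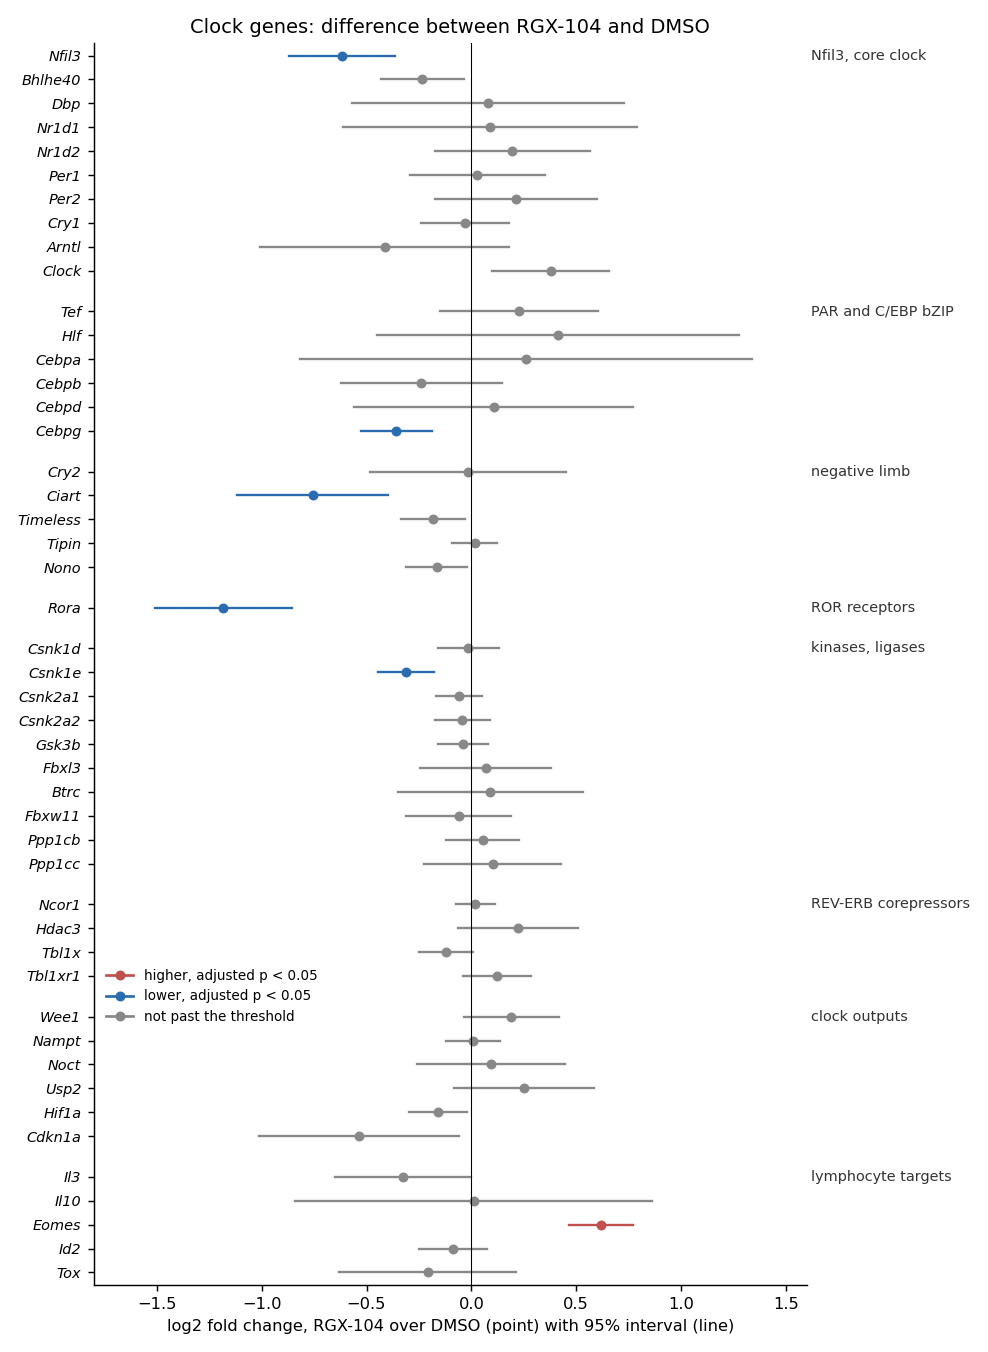
Log2 fold change of RGX-104 over DMSO (x axis; points, with 95% intervals as lines) for the 10 genes and the tested genes of the other lists, grouped by role (right); blue marks genes called lower, red higher, and grey neither, at an adjusted p under 0.05 over all genes. Nfil3 (-0.62), Rora (-1.182), Ciart (-0.76), Csnk1e (-0.31) and Cebpg (-0.36) lie left of 0 and Eomes (0.62) right of it.

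Rora, the receptor that activates Arntl and competes with the REV-ERB receptors for the same elements, had the largest difference of all these genes (Entrez gene 19883; chromosome 9, 68653404 to 69388246). It was at 9.05, 13.4, 10.8 and 9.14 CPM in RGX-104 replicates 5 to 8, against 21.8, 22.9, 26.6 and 24.8 CPM in DMSO replicates 1 to 4. Every RGX-104 library was far below every DMSO library. Rora fell by 1.182 ± 0.16 on the log2 scale (edgeR adjusted p = 5.14e-05), to 44.0% of the DMSO level, and was called in all 15 alternatives.

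Ciart encodes a repressor of the CLOCK and BMAL1 pair (Entrez gene 229599; chromosome 3, 95878500 to 95882257). It was at 12.4, 10.2, 8.90 and 9.68 CPM in RGX-104 replicates 5 to 8, against 16.1, 13.8, 18.5 and 21.3 CPM in DMSO replicates 1 to 4, with no overlap. Ciart fell by 0.76 ± 0.17 on the log2 scale (edgeR adjusted p = 0.0163). Its size held with any 1 library left out (-0.86 to -0.65 over all alternatives), but its call did not: the adjusted p was 0.0508 without RGX-104 replicate 6, 0.0641 without replicate 7, 0.0605 without replicate 8, 0.0617 without DMSO replicate 3 and 0.0701 without DMSO replicate 4. The window before Ciart (chr3:95882229-95882478, minus strand) is shown for its 3 E-boxes, which start 116, 58 and 44 bases before the start (capitals); 6.02% of windows held at least 1.
Ciart: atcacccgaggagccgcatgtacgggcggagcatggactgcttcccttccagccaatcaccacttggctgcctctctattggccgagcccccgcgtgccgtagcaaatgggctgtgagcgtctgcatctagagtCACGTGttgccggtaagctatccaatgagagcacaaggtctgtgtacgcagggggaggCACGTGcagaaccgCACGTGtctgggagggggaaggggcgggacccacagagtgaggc
Cry1, with 1 such E-box, did not separate the groups, as given above.

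Csnk1e, a casein kinase that phosphorylates PER proteins (chromosome 15, 79417852 to 79455579), was at 104, 97.3, 107 and 96.2 CPM in RGX-104 replicates 5 to 8 and 128, 122, 130 and 122 CPM in DMSO replicates 1 to 4. The groups were tight and did not overlap. Csnk1e fell by 0.31 ± 0.06 on the log2 scale (edgeR adjusted p = 0.00713) and was called in all 15 alternatives. Its paralog Csnk1d, which acts on the same proteins, had a log2 fold change of -0.01 ± 0.07 and was not called; the difference between the paralogs was not tested. The other 8 tested kinases, phosphatases and ubiquitin ligase parts of the list were not called either.

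Cebpg, a basic leucine zipper factor known as a partner of ATF4 in the amino acid stress response, was at 88.0, 101, 76.3 and 82.8 CPM in RGX-104 replicates 5 to 8, against 107, 114, 121 and 104 CPM in DMSO replicates 1 to 4. It fell by 0.36 ± 0.08 on the log2 scale (edgeR adjusted p = 0.0158). The call was lost without RGX-104 replicate 7 (adjusted p = 0.0755), RGX-104 replicate 8 (0.0711) or DMSO replicate 3 (0.0876). Tef and Hlf, the D-box activators related to DBP, were not called: Tef averaged 12.5 ± 2.37 CPM in RGX-104 and 10.6 ± 1.32 CPM in DMSO libraries (n = 4 each). Cebpa, Cebpb and Cebpd were not called.

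**Figure D4:**
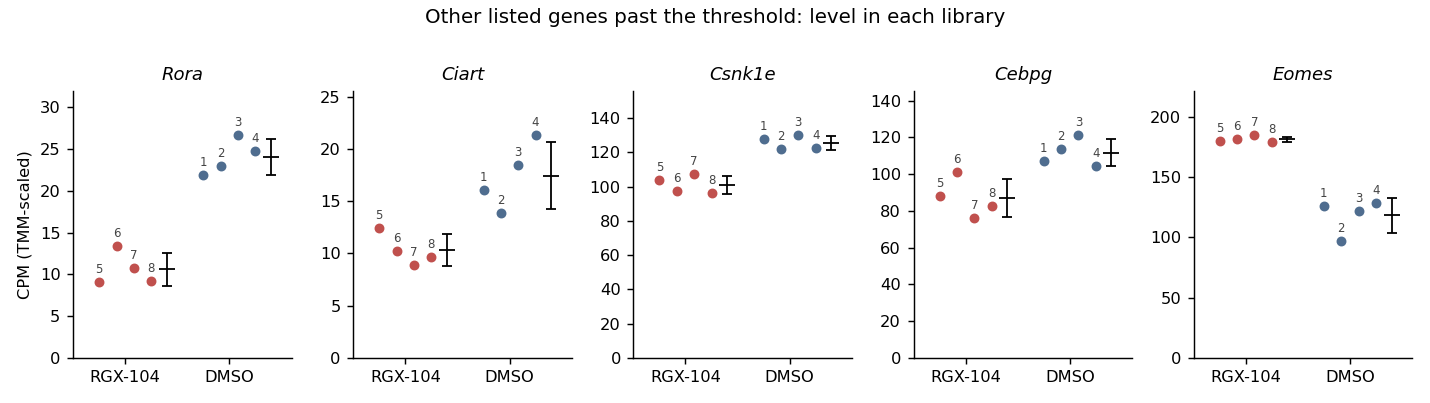
TMM-scaled CPM (y axes, from 0) of the 5 genes outside the core set that passed the threshold, in each RGX-104 (red) and DMSO (blue) library, with replicate numbers and the mean ± SD of 4 libraries in black. Rora, Ciart, Csnk1e and Cebpg are lower, and Eomes is higher, in every RGX-104 library than in every DMSO library.

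In the rest of the clock lists edgeR, DESeq2 and limma-voom each called 0 genes. Of the other repressors, Timeless was at 113 ± 12.5 CPM in RGX-104 and 129 ± 4.26 CPM in DMSO libraries (log2 fold change -0.18, edgeR adjusted p = 0.253), and Nono, a partner of PER proteins, at 130 ± 10.9 CPM in RGX-104 and 145 ± 10.1 CPM in DMSO libraries (-0.17, adjusted p = 0.283). The 4 corepressor genes of the REV-ERB receptors had log2 fold changes of -0.12 to 0.22, with Ncor1 at 0.02 ± 0.05. Of 6 output genes, Wee1, a mitotic kinase, had 0.19 ± 0.11, Nampt, an enzyme of NAD synthesis, 0.01 ± 0.06, and Cdkn1a, a cell cycle inhibitor, -0.54 ± 0.23 (adjusted p = 0.292). By edgeR 0 of the 4 corepressor genes and 2 of the 6 output genes, Hif1a and Cdkn1a, had an unadjusted p under 0.05, beside 13.8% of all tested genes.

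Genes known to be regulated by NFIL3 or BHLHE40 in immune cells gave 1 called higher and 0 lower of 5 tested, beside 0.888% higher and 1.78% lower of all tested genes. The 1 is Eomes, listed with its difference known, and nothing is read from that count. Eomes, a T-box factor of CD8 T cells and natural killer cells that NFIL3 is known to act on in the natural killer lineage, was at 180, 182, 185 and 179 CPM in RGX-104 replicates 5 to 8 and 126, 97.1, 122 and 128 CPM in DMSO replicates 1 to 4. Its log2 fold change was 0.62 ± 0.07, given with no p-value because its difference was known when the list was made. Il3, whose promoter NFIL3 is known to bind in human T cells, was at 16.1 ± 1.65 CPM in RGX-104 and 20.2 ± 4.099 CPM in DMSO libraries (log2 fold change -0.33, adjusted p = 0.359). Il10, which both factors are known to regulate, had a log2 fold change of 0.01 ± 0.41, and Id2 one of -0.09 ± 0.08. Tox had -0.21 ± 0.20 and was not called. Havcr2, Foxp3, Il12b and Csf2 had too few reads to be tested.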

How the data were processed

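RNA of 8 samples was sequenced from Lexogen 3′ FWD libraries of total RNA, per the labels' protocols, so reads mark transcript ends. The authors deposited 1 table of raw read counts per gene symbol. The submitters' processing notes name STAR 2.7.8a, R 4.1.0, DESeq2 1.4 and GRCm38. No source used here gives the counter, its strand setting or the annotation release. Symbols with a number appended repeat another entry in 2339 cases. Columns matched samples by number and group word, and 0 columns belonged to another series.

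The test was edgeR 4.0.16, run in R 4.3.3 (filterByExpr, TMM, glmQLFit, glmQLFTest, two-sided, group only), with Benjamini-Hochberg adjustment over 12162 genes and a threshold of 0.05. Standard errors are the log2 fold change divided by the root of F, and 95% intervals use edgeR's total degrees of freedom. The code was tested on simulated data. There the share of false calls by DESeq2, an alternative only, was slightly above the limit set for edgeR. Counting error covers reads, not molecules, since no molecular identifiers are named. Chi-square between replicates was at least 6.52 times its expectation, so none is a copy of another. DESeq2 1.42.0, limma 3.58.1 (voom), other scalings, filters and each library left out were alternatives.

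The 10 genes, the lists, the named genes and tests were chosen with earlier results of these data known. Named genes were these 10, every called gene and up to 3 with the smallest p in each list, and 5 genes most like Nfil3 by each measure (mean of at least 50 counts). A gene of these lists is not reported here and enters no list count. Others named were chosen after their values were seen. Symbols were matched to RefSeq for all 10 genes, and exon overlaps were taken from GENCODE M21.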

Additional observations from a re-analysis of the deposited data

Results flagged for a closer look

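Of 58 sets of 4 libraries (29 genes in each treatment), 3 held a library far from the others, where chance flags about 1 in 20 sets. Nfil3 was at 22.5 CPM in RGX-104 replicate 7, below the other RGX-104 libraries at 28.5 to 28.7 CPM. Per1 was at 19.3 CPM in DMSO replicate 3, above the other DMSO libraries at 15.1 to 15.6 CPM. Tef was at 8.66 CPM in DMSO replicate 1, below the other DMSO libraries at 11.2 to 11.4 CPM.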

How the results depend on the processing

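Rora and Csnk1e kept their direction and call in all 15 alternatives. Nfil3 and Eomes were listed with their differences known, so only their sizes are given. Over the alternatives log2 fold changes were -0.67 to -0.52 for Nfil3, -1.31 to -1.11 for Rora, -0.34 to -0.29 for Csnk1e and 0.53 to 0.66 for Eomes. No paired analysis was run. The replicate numbers are serial sample numbers, and the sources used here do not say whether cultures were paired. Of the 10 clock genes, 0 were called higher and 1 lower in every alternative. The 1 was Nfil3, chosen for this difference, so nothing is read from that count. The median log2 fold change of the 10 was 0.05, and -0.10 to 0.11 with 1 library left out. The genes called lower in the further lists were 4, and 2 to 4 with 1 library left out, a setting with fewer samples. Genes called higher over the whole table were 108, with 190 by DESeq2 and 57 to 93 with 1 library left out. Hif1a was called lower in 1 alternative, without DMSO replicate 4 (-0.23, adjusted p = 0.0487).

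Genes near 0 changed sign. With 1 library left out, log2 fold changes ran from -0.21 to 0.31 for Dbp, -0.19 to 0.25 for Nr1d1, -0.073 to 0.12 for Per1 and -0.11 to 0.045 for Cry1. Dbp was negative without RGX-104 replicate 6 (-0.21), RGX-104 replicate 8 or DMSO replicate 4, Nr1d1 without RGX-104 replicate 6 or DMSO replicate 2, and Per1 without RGX-104 replicate 5 or DMSO replicate 4. Cry1 was positive without RGX-104 replicate 7 or DMSO replicate 2. Dbp, Nr1d1 and Arntl had the fewest reads of the 10 genes, and of these Arntl kept its sign in all 15 alternatives. Per1, at 188 to 306 reads per library, and Cry1, at 592 to 761, changed sign with more reads. The cause of the sign changes was not tested.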
